A study of Mus musculus with 10 samples.

Results

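Expression was followed in 10 skin libraries for 10 genes of the Notch pathway: the receptors Notch1, Notch2, Notch3 and Notch4, the ligands Dll1, Dll4, Jag1 and Jag2, and the transcriptional targets Hes1 and Hey1. The genes were taken by symbol, and all 10 were found among the 24543 entries of the gene table. Total RNA came from dorsal skin of C57BL/6 mice whose genotype was labelled Dlx4-WT or Dlx4-KO, the latter lacking an intact gene for the homeobox transcription factor Dlx4. The groups were 3 WT and 3 KO libraries at postnatal day 1 (P1) and 2 WT and 2 KO libraries at postnatal day 60 (P60), the WT animals being littermates. The labels give no Cre driver or promoter, do not say how the allele was made, and give neither sex nor litter for any library, so p-values measure the spread between these libraries. The series asked which molecular changes accompany loss of Dlx4 in skin.

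Notch receptors are single-pass membrane proteins that are activated by Delta-like and Jagged ligands on a neighbouring cell. Ligand binding exposes the receptor to cleavage by an ADAM protease and then by gamma-secretase, and the released intracellular domain enters the nucleus, where it joins Rbpj and a Mastermind coactivator to switch on genes such as those of the Hes and Hey families. In epidermis the pathway promotes the departure of keratinocytes from the basal layer, in the hair follicle it maintains the inner layers of the hair bulb, and in dermis Notch3 is known from mural cells of vessels while Notch4 and Dll4 are known from endothelium.

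The libraries had 36131011 to 74916106 alignments. Expression is given in RPKM, the authors' read numbers scaled by gene length and library size, so levels can be compared between genes. Dlx4 itself stood at 2.93, 3.78 and 3.42 RPKM in the 3 WT libraries at P1 and at 1.77, 2.45 and 1.62 RPKM in the 3 KO libraries, lower but not 0, and at P60 it was at or below 0.125 RPKM in all 4 libraries of both genotypes, so the P60 labels could not be checked by it. All 6 P1 libraries were sequenced in 1 run and all 4 P60 libraries in another. Xist, which is transcribed in females, and the Y-linked Eif2s3y also separated the ages: 5 of 6 P1 libraries had 29.2 to 39.8 RPKM of Xist, whereas KO P1 replicate 2 (Xist 0.0536 RPKM, Eif2s3y 35.0 RPKM) and all 4 P60 libraries (Eif2s3y 22.3 to 26.9 RPKM) had the reverse pattern. Age and run cannot be told apart in any comparison of P60 with P1, and in WT neither can this pattern. In KO, 1 P1 library shared the pattern of the P60 libraries, and its levels are given with the others below. In whole skin, fewer cells of a type and less RNA per cell cannot be told apart either.

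Sequence upstream of the 4 receptors is shown first, as the receptors include the genes called in the comparisons of KO with WT. The 250 bases before the annotated transcription start were taken from RefSeq on GRCm38.p6, which had such a promoter for 8 of the 10 genes, with no entry for Hes1 and Hey1. The windows printed are chr2:26503823-26504072 on the minus strand for Notch1, chr3:98013288-98013537 on the plus strand for Notch2, chr17:32166891-32167140 on the minus strand for Notch3 and chr17:34564045-34564294 on the plus strand for Notch4, each written 5′ to 3′ in lower case with GC boxes in capitals.
Notch1: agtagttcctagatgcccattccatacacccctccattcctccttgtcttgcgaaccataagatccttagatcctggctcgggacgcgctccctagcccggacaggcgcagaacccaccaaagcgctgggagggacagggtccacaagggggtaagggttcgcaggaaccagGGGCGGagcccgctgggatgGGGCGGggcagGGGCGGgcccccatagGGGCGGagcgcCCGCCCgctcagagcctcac
Notch2: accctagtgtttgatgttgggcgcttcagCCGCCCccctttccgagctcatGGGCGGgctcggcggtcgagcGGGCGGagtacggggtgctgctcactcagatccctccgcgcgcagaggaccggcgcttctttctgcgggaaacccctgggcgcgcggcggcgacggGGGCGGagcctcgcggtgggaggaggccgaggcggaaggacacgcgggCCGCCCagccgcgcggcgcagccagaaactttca
Notch3: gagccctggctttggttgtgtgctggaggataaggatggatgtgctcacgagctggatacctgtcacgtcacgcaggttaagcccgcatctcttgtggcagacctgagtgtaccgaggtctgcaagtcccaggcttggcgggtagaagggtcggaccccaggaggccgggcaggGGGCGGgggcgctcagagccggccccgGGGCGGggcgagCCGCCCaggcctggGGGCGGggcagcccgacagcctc
Notch4: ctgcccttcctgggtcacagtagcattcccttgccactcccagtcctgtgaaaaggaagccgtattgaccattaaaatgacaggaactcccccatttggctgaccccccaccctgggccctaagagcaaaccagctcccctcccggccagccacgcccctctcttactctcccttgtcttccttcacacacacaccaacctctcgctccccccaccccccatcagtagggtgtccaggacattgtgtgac
A GC box, the letters GGGCGG on either strand (CCGCCC when on the other), is the motif bound by Sp family factors. It occurred 5 times before Notch1, 5 times before Notch2, 4 times before Notch3 and 0 times before Notch4. Among the ligands it occurred 5 times before Jag2 and 2 times before Dll4, and not before Jag1 or Dll1, so that 5 of 8 genes held it. These 8 genes had 9 windows, as Dll1 had 2. Of 32851 RefSeq promoters of the same length 32.7% held it, counted by window and not by gene. The GC content was not matched. Neither the Rbpj core TGGGAA (or TTCCCA) nor the Dlx homeodomain core TAATTG (or CAATTA) was found in the windows of these 8 genes, and they were present in 21.6% and 7.17% of all promoters. By GENCODE M21, the Notch1 window lies inside the annotated Notch1 gene, whose longest transcript starts further upstream, and the last 27 bases of the Notch4 window lie in annotated exon. All 250 bases of the Jag2 window, where 5 of the GC boxes were found, are annotated Jag2 exon, as are 124 bases of the Jag1 window and 153 bases of 1 Dll1 window, and both Dll1 windows hold exon sequence of A930024N18Rik. These matches describe letters only and no factor binding was measured.

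In GENCODE M21 annotation of mm10 the receptors lie at chr2:26457903-26516663 (Notch1), chr3:98013527-98150361 (Notch2), chr17:32120820-32166852 (Notch3) and chr17:34564268-34588503 (Notch4). The ligands lie at chr17:15367354-15376872 (Dll1), chr2:119325784-119335962 (Dll4), chr2:137081456-137116644 (Jag1) and chr12:112907819-112929776 (Jag2), and the targets at chr16:30064384-30067796 (Hes1) and chr3:8663359-8667256 (Hey1). Annotated exons of Notch1, Notch3, Dll1 and Dll4 overlap genes on the other strand by 214 to 964 bases, and those of Notch2 overlap Gm42820 on the same strand by 541 bases. The counting rule for strands was not stated in the labels, so reads from these shared bases may be assigned to either gene. If the listed alignments are the base of the RPKM values, the lowest library held about 235 reads for Dll4, 240 for Hey1 and 387 for Notch4, against 2559 for Notch2 and 5702 for Jag2, so values of Dll4, Hey1 and Notch4 carry more counting error.

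Newborn WT skin expressed all 10 genes, in the order Jag2, Hes1, Notch1, Notch3, Jag1, Notch2, Dll1, Hey1, Dll4 and Notch4. The mean level of Jag2, a ligand of the Jagged class, was 34.6 RPKM and that of Notch4 was 2.04 RPKM. The libraries of Notch1 lay above those of Notch3, those of Jag1 above those of Notch2, and those of Notch2 above those of Dll1, while every other pair of neighbours in the order overlapped. In WT skin at P60 Jag2 and Hes1 stayed first and second, but Dll1 (6.63 RPKM) stood above Jag1 (6.19 RPKM) and Notch2 (4.73 RPKM), where Dll1 and Jag1 overlapped and Jag1 and Notch2 did not. At the low end, Hey1 overlapped Dll4, and Dll4 overlapped Notch4. In the KO groups Jag2 was again highest, at 35.96 RPKM (P1) and 31.1 RPKM (P60), and Notch4 and Dll4 were again lowest and overlapped.

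Notch1, the main receptor of epidermal keratinocytes, was at 26.3, 28.1 and 21.0 RPKM in WT and 25.7, 29.0 and 26.2 RPKM in KO libraries at P1, and at 10.6 and 9.18 RPKM in WT and 11.98 and 12.7 RPKM in KO libraries at P60. Every P60 library lay below every P1 library, KO P1 replicate 2 (29.0 RPKM) included, and at P60 both KO libraries lay above both WT libraries. Notch2, a receptor with broad expression, was at 12.9, 13.9 and 12.1 RPKM in WT and 12.99, 13.8 and 12.9 RPKM in KO libraries at P1, and at 4.88 and 4.59 RPKM in WT and 7.29 and 6.98 RPKM in KO libraries at P60. The genotypes overlapped at P1 and were apart at P60. Notch3 was at 17.2, 16.0 and 19.7 RPKM in WT and 20.1, 18.4 and 15.8 RPKM in KO libraries at P1, and at 7.15 and 7.02 RPKM in WT and 10.3 and 10.8 RPKM in KO libraries at P60. As for Notch2, the genotypes overlapped at P1 and were apart at P60. Notch4 was at 1.93, 1.94 and 2.23 RPKM in WT and 2.26, 1.51 and 1.68 RPKM in KO libraries at P1, and at 1.77 and 1.56 RPKM in WT and 1.503 and 1.55 RPKM in KO libraries at P60. It was low throughout, and its P60 libraries lay within the range of its KO libraries at P1 or next to it.

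Among the ligands, Jag1 was at 15.4, 18.1 and 17.1 RPKM in WT and 14.4, 18.3 and 17.2 RPKM in KO libraries at P1, and at 6.92 and 5.45 RPKM in WT and 8.87 and 7.41 RPKM in KO libraries at P60. All P60 libraries of Jag1 lay below all P1 libraries. Jag2 was at 34.1, 28.9 and 40.8 RPKM in WT and 37.7, 37.4 and 32.9 RPKM in KO libraries at P1, and at 22.4 and 24.3 RPKM in WT and 28.9 and 33.4 RPKM in KO libraries at P60. Here the ages were apart in WT and overlapped in KO. Dll1, a Delta-like ligand, was at 6.36, 5.38 and 10.2 RPKM in WT and 6.36, 6.46 and 6.08 RPKM in KO libraries at P1, and at 6.85 and 6.40 RPKM in WT and 6.94 and 9.12 RPKM in KO libraries at P60. Dll4 was at 2.12, 1.93 and 3.79 RPKM in WT and 2.63, 1.87 and 2.01 RPKM in KO libraries at P1, and at 1.26 and 2.12 RPKM in WT and 1.52 and 1.52 RPKM in KO libraries at P60. Both Delta-like ligands were highest in WT P1 replicate 3.

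Of the targets, Hes1, a basic helix-loop-helix repressor that many signals besides Notch induce, was at 22.4, 19.9 and 34.7 RPKM in WT and 23.1, 26.6 and 23.4 RPKM in KO libraries at P1, and at 21.0 and 22.1 RPKM in WT and 30.3 and 18.9 RPKM in KO libraries at P60. Its 2 KO libraries at P60 stood on either side of the WT libraries. Hey1, a related repressor known from vessels among other tissues, was at 4.40, 2.99 and 5.40 RPKM in WT and 4.07, 4.05 and 4.21 RPKM in KO libraries at P1, and at 2.50 and 2.07 RPKM in WT and 1.80 and 1.77 RPKM in KO libraries at P60. All P60 libraries of Hey1 lay below all P1 libraries, and at P60 KO lay below WT. WT P1 replicate 3 was the highest P1 library for Hes1, Hey1, Jag2, Dll1 and Dll4 and the lowest for Notch1 and Notch2. It also had the highest summed level of 12 endothelial markers (197 RPKM, against 137 to 177 RPKM in the KO P1 libraries), and the part of endothelial RNA in these values was not tested.

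**Figure D1:**
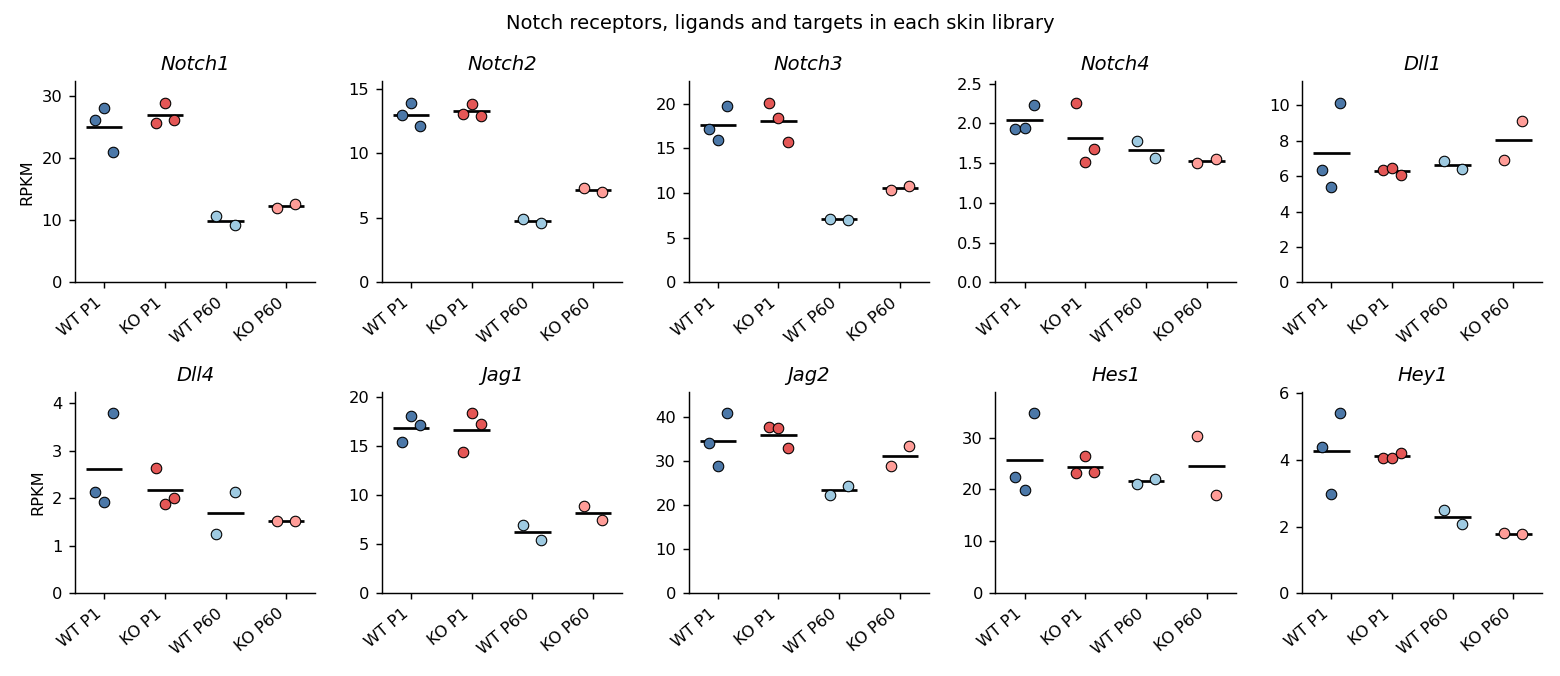
RPKM of each of the 10 genes (vertical axis, starting at 0) in each library, grouped by genotype and age on the horizontal axis, with points for libraries and bars for group means. Notch1, Notch2, Notch3 and Jag1 are lower in all 4 P60 libraries than in all 6 P1 libraries, and at P60 the KO libraries of Notch2 (7.29 and 6.98 RPKM) stand above the WT libraries (4.88 and 4.59 RPKM).

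At P1, loss of Dlx4 came with no difference in any of the 10 genes that passed the test. The log2 differences of RPKM + 0.5, KO minus WT, ran from -0.18 (Dll4) to 0.11 (Notch1), and 0 of 10 were called at an adjusted p under 0.05 (limma, adjusted over 14026 tested genes), as were 0% of all genes, although 130 genes (0.927%) had an unadjusted p under 0.05. The KO and WT libraries overlapped for all 10 genes, where 4.56% of all genes did not overlap. The 95% interval for Notch2, the most precise of the receptors, was -0.16 to 0.21. That for Dll4, the least precise ligand, was -0.70 to 0.33, so that changes of moderate size could not be detected for the low genes. Without KO P1 replicate 2, the library with the other Xist pattern, the count was again 0.

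At P60, Notch2 and Notch3 were higher in KO than in WT skin. Notch2 was 1.46-fold higher (log2 difference 0.54, SE 0.10, 95% interval 0.32 to 0.77, limma adjusted p = 0.0308) and Notch3 was likewise 1.46-fold higher (0.54, SE 0.13, 0.24 to 0.84, limma adjusted p = 0.0392), with n = 2 libraries in each group. The share of all tested genes called was 11.1%, with 8.21% called higher and 2.91% lower, beside 2 of 10 and 0 of 10 of the Notch genes. The other 8 genes were not called. Their log2 differences were 0.41 for Jag2 (limma adjusted p = 0.111), 0.37 for Jag1 (limma adjusted p = 0.135), 0.30 for Notch1 (limma adjusted p = 0.174) and 0.25 for Dll1 (limma adjusted p = 0.504), then 0.15 for Hes1, -0.08 for Dll4, -0.10 for Notch4 and -0.28 for Hey1 (limma adjusted p = 0.380). The KO libraries lay wholly above the WT libraries for 6 genes and wholly below for Hey1 and Notch4, where 42.7% and 18.8% of all genes did so (61.5% either way) with 2 libraries a group. The median log2 difference was 0.28 over the 10 genes and 0.13 over all tested genes.

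The calls at P60 depended on how the spread and the scale were set. Scaling by the median of ratios between libraries, which sets the median difference of all genes near 0, left Notch2 called (0.40, limma adjusted p = 0.0443) but not Notch3 (0.39, limma adjusted p = 0.0732), and it turned the share of higher among all called genes from 73.8% to 30.5%. With no expression filter Notch3 was not called (limma adjusted p = 0.0609). With a replicate block, a term for each replicate number within an age, both Notch2 and Notch3 lost their call. Neither was called after quantile normalization, with the P60 libraries fitted alone, or without WT P1 replicate 1, KO P1 replicate 2, KO P1 replicate 3, WT P60 replicate 1, WT P60 replicate 2 or KO P60 replicate 1, and Notch3 was not called without KO P60 replicate 2. The log2 difference stayed at 0.38 to 0.59 for Notch2 and 0.38 to 0.57 for Notch3 over all 19 alternatives. In the authors' deposited table the KO to WT ratio at P60 was 1.497 for Notch2 (p-value 0.168) and 1.48 for Notch3 (p-value 0.319), and none of the 10 genes had a p-value under 0.05 at either age.

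Whether the KO difference changed between the ages was tested directly. The difference of the KO effect, P60 minus P1, was 0.52 on the log2 scale for Notch2 (SE 0.13, 95% interval 0.23 to 0.81, limma adjusted p = 0.111) and 0.51 for Notch3 (SE 0.17, 0.12 to 0.90, limma adjusted p = 0.144). It was called for 0 of 10 genes and for 0% of all genes, while 3214 genes (22.9%) had an unadjusted p under 0.05. The calls of Notch2 and Notch3 at P60 are therefore not shown to be particular to that age.

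**Figure D2:**
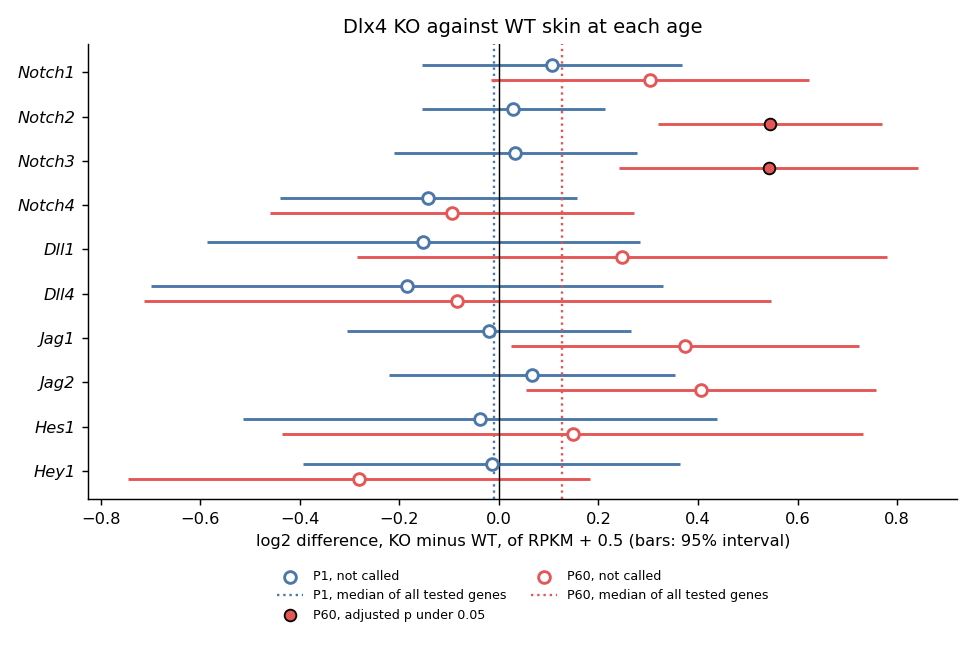
Log2 difference of RPKM + 0.5, KO minus WT (horizontal axis), for each gene at P1 (blue) and P60 (red), with bars for 95% intervals, filled points for adjusted p under 0.05 and dotted lines for the median of all tested genes. The filled points are Notch2 (0.54) and Notch3 (0.54) at P60, and all P1 points lie between -0.18 and 0.11.

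Markers of several cell types differed between the genotypes at P60 beside these calls. Of all tested genes, 8.21% were called higher and 2.91% lower. The marker calls rest on the same fit, and 0 genes of any kind were called with the P60 libraries fitted alone or without KO P1 replicate 2. Of 8 fibroblast markers 7 were called higher in KO, with a median log2 difference of 1.39, and their summed level was 4310 to 5325 RPKM in WT and 9653 to 23249 RPKM in KO libraries. Of 6 macrophage markers 5 were called higher (36.5 to 72.3 RPKM in WT, 117 to 141 RPKM in KO), and of 6 T cell markers 3 were (11.6 to 14.4 and 19.6 to 24.5 RPKM). Mural cell markers, which matter for Notch3, were called higher in 1 of 8 cases (Pdgfrb, 0.81), with sums of 121 to 140 RPKM in WT and 133 to 185 RPKM in KO. Their log2 differences ran from -0.46 to 0.81 (median 0.23), with 6 of 8 above 0. The means of Rgs5 (24.4 RPKM in WT, 20.2 RPKM in KO) and Abcc9 (9.90 and 7.09 RPKM) were lower in KO. Endothelial markers were called in 0 of 12 cases (119 to 143 and 144 to 162 RPKM). Basal and suprabasal epidermal markers were called in 0 of 7 cases each, with 5 of 7 above 0 in each list. The suprabasal median was 0.39, with sums of 4676 to 5001 RPKM in WT and 5723 to 5793 RPKM in KO. The basal median was 0.13, with sums of 3573 to 4612 RPKM in WT and 3880 to 4420 RPKM in KO. Adipocyte markers were called in 0 of 6 cases, with all 6 above 0 (median 0.90). Of 9 skeletal muscle markers 1 was called lower (Myh1, -0.89), all 9 lay below 0 (median -0.91), and their sum was 37093 to 41331 RPKM in WT and 15960 to 27064 RPKM in KO. KO P60 replicate 1 had the highest fibroblast sum and the lowest muscle sum of the 4 libraries. Without it the difference was 0.52 for Notch2 and 0.57 for Notch3. The KO library left in that fit also stood above WT in fibroblast sum (9653 RPKM) and below WT in muscle sum (27064 RPKM), so the fit cannot decide about composition. The part of cell composition in the receptor differences was not tested.

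From P1 to P60 the receptors Notch1, Notch2 and Notch3 and the ligand Jag1 fell in both genotypes. In WT skin Notch2 fell by 1.36 (SE 0.09), Notch1 by 1.29 (SE 0.13), Notch3 by 1.25 (SE 0.12) and Jag1 by 1.38 (SE 0.14) on the log2 scale (limma, adjusted p from 1.23e-06 to 1.47e-05). The median of all tested genes fell by 0.47 in the same comparison, and under each of the 19 alternatives these genes were still called lower, with the smallest falls at 0.87 for Notch2, 0.79 for Notch1, 0.76 for Notch3 and 0.89 for Jag1. Jag2 (-0.54, SE 0.14, limma adjusted p = 0.00598) and Hey1 (-0.75, SE 0.19, limma adjusted p = 0.00488) were also called lower, but not with median-of-ratios scaling (-0.03 and -0.30) or quantile normalization (-0.36 and -0.14). Notch4 (-0.23), Dll1 (-0.08), Dll4 (-0.49, limma adjusted p = 0.107) and Hes1 (-0.21) were not called, and with median-of-ratios scaling Notch4 stood at 0.18, Dll1 at 0.40 and Hes1 at 0.31, so their direction followed the scaling. With quantile normalization Notch4 was called higher (0.38, limma adjusted p = 0.0413), and without WT P60 replicate 2 Dll4 was called lower (-0.78, limma adjusted p = 0.0449). In all, 6 of 10 genes were called lower and 0 higher, where 56% of all genes were called lower and 20% higher (76% in all). The libraries of the ages did not overlap for 7 genes, all lower at P60, beside 59.5% of all genes lower, 22.3% higher and 81.7% in all.

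In KO skin Notch1 fell by 1.10 (SE 0.13), Notch2 by 0.85 (SE 0.09), Notch3 by 0.74 (SE 0.12), Jag1 by 0.99 (SE 0.14) and Hey1 by 1.01 (SE 0.19) on the log2 scale (limma, adjusted p from 2.99e-05 to 0.000896), again called under all 19 alternatives. Jag2 (-0.21), Dll4 (-0.39), Notch4 (-0.18), Hes1 (-0.02) and Dll1 (0.32) were not called. With median-of-ratios scaling Jag2 stood at 0.13, Notch4 at 0.08 and Hes1 at 0.32, and Dll1 was called higher (0.64, limma adjusted p = 0.0181), as it was with quantile normalization (0.66, limma adjusted p = 0.0183) and without WT P1 replicate 3 (0.32, limma adjusted p = 0.0442). Dll4 was called lower with the KO libraries fitted alone (-0.39, limma adjusted p = 0.0452). In all, 5 of 10 genes were called lower, where 49.2% of all genes were called lower and 21.6% higher (70.9% in all), and the median of all genes fell by 0.32. The libraries did not overlap for 6 genes that were lower and 1 that was higher (Dll1), beside 55.7% and 26.5% of all genes (82.2% in all). The WT and KO age comparisons share no library, and the difference between them is the same quantity as the difference of the KO effect between ages given above.

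Beside these falls, all 8 hair shaft and matrix markers were lower at P60 in WT (median log2 difference -4.64), 6 of 7 inner root sheath markers were lower (median -8.28), and all 9 skeletal muscle markers were higher, their sum going from 3388 to 7275 RPKM at P1 to 37093 to 41331 RPKM at P60. Of the other lists in WT, suprabasal markers were called lower in 4 of 7 cases. Their sums were 10831 to 14083 RPKM at P1 and 4676 to 5001 RPKM at P60. Fibroblast markers were called lower in 5 of 8 cases, while their sums overlapped (4386 to 5122 RPKM at P1, 4310 to 5325 RPKM at P60). Mural cell markers were called lower in 4 of 8 cases (160 to 186 and 121 to 140 RPKM). Endothelial markers were called lower in 6 of 12 cases (153 to 197 and 119 to 143 RPKM) and adipocyte markers in 3 of 6. Of all tested genes, 56% were called lower and 20% higher in WT. The suprabasal, fibroblast and mural cell lists also had 1 gene each called higher. Basal epidermal markers were called lower in 2 of 7 cases and higher in 3, and macrophage markers lower in 2 of 6. T cell markers were called higher in 4 of 6 cases and Schwann cell markers in 4 of 5, each with 1 lower. In KO, mural cell markers were called lower in 1 of 8 cases and higher in 2, and endothelial markers lower in 3 of 12 and higher in 1. Fibroblast markers were called lower in 2 of 8 cases and higher in 4 in KO, where 49.2% of all genes were called lower and 21.6% higher. Krt73 was listed at 0 in 3 libraries, and Krt72 and Krt33b in 1 each. The part of these cell types in the Notch values was not tested.

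**Figure D3:**
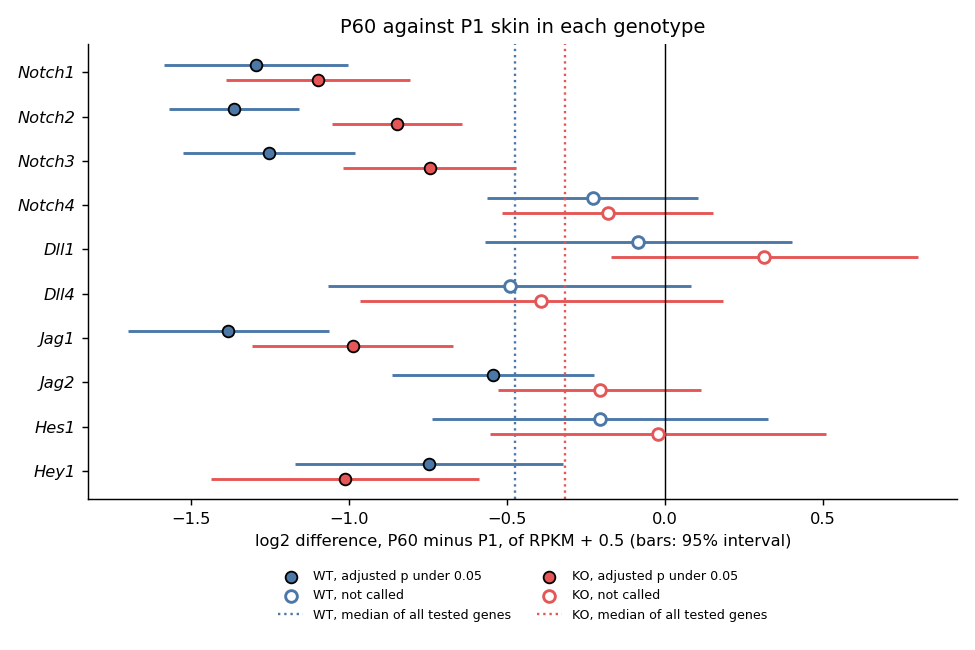
Log2 difference of RPKM + 0.5, P60 minus P1 (horizontal axis), for each gene in WT (blue) and KO (red), with bars for 95% intervals, filled points for adjusted p under 0.05 and dotted lines for the median of all tested genes. Notch1, Notch2, Notch3 and Jag1 lie left of both medians in both genotypes, whereas Dll1 lies right of them (-0.08 in WT and 0.32 in KO).

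Within the receptor class the 3 most abundant transcripts kept similar parts in the groups while the sum changed. The summed level of the 4 receptors was 57.8 ± 2.48 RPKM (SD, n = 3) in WT and 60.1 ± 3.22 RPKM (SD, n = 3) in KO skin at P1, and 23.4 ± 1.48 RPKM (SD, n = 2) in WT and 31.5 ± 0.659 RPKM (SD, n = 2) in KO skin at P60. Notch1 made up 43.4% of that sum in WT and 44.9% in KO at P1, and 42.3% in WT and 39.1% in KO at P60. Notch3 made up 30.7%, 30.0%, 30.3% and 33.4% in the same order of groups, and Notch2 made up 22.4%, 22.0%, 20.2% and 22.6%. Notch4 had 3.53% and 3.03% at P1 and then 7.11% in WT and 4.84% in KO at P60, so the receptor that was not called lower with age held a larger part of a smaller sum.

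The ligand class shifted between its members. Its summed level was 61.3 ± 9.30 RPKM (SD, n = 3) in WT and 61.1 ± 2.92 RPKM (SD, n = 3) in KO at P1, and 37.9 ± 0.646 RPKM (SD, n = 2) in WT and 48.8 ± 3.75 RPKM (SD, n = 2) in KO at P60. Jag1 made up 27.9% and 27.3% at P1 in WT and KO, and 16.4% and 16.8% at P60, with every P60 library below every P1 library. Dll1 went the other way, from 11.7% and 10.3% at P1 to 17.5% and 16.4% at P60, and every P60 library lay above every P1 library. Jag2 made up 56.3% and 58.8% at P1 and 61.7% and 63.7% at P60, and Dll4 stayed between 3.13% and 4.45% in the group means. These shares do not depend on the scaling of a library, and no test was made on them.

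**Figure D4:**
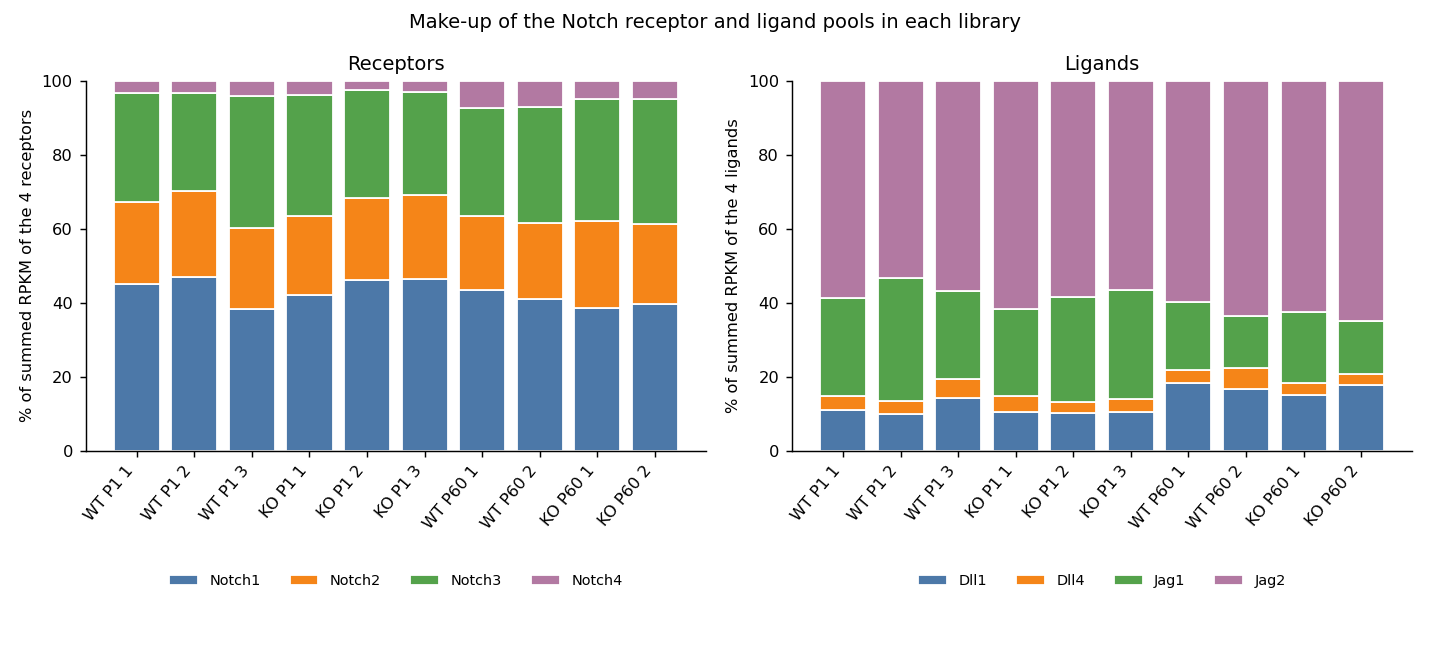
Percent of the summed RPKM of the 4 receptors (left) and of the 4 ligands (right) contributed by each gene, 1 stacked bar per library. The Jag1 part of the ligand bars is narrower in the 4 P60 libraries (group means 16.4% and 16.8%) than in the 6 P1 libraries (27.9% and 27.3%).

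Other genes of the pathway were followed in 8 lists of 58 symbols, of which 53 passed the filter on low values and Dll3, Dner, Aph1c, Hes5 and Hes7 did not. At P1 0 of 53 were called between the genotypes. At P60 8 of 53 were called higher in KO and 0 lower, 42 of 53 lay above 0 and the median log2 difference was 0.26, beside the 8.21% and 2.91% of all genes and their median of 0.13. The nuclear complex, which reads out the signal, had 4 called genes of 7. Rbpj, the DNA-binding partner of the receptor fragment, was at 6.93 ± 0.103 RPKM (SD, n = 2) in WT and 9.91 ± 0.168 RPKM (SD, n = 2) in KO (log2 difference 0.49, SE 0.09, limma adjusted p = 0.0296). The coactivators Maml1 (0.57) and Maml3 (0.51) and the acetyltransferase Ep300 (0.43) were the others.

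In the remaining lists, Spen, a corepressor partner of Rbpj, was higher by 0.58 (SE 0.11, limma adjusted p = 0.0308), from 2.58 to 4.10 RPKM in the group means. Among genes of receptor cleavage, Aph1b, a gamma-secretase subunit, was higher by 0.66 (SE 0.12, limma adjusted p = 0.0308) and Adam17, a metalloprotease, by 0.42 (SE 0.11, limma adjusted p = 0.0415), 2 of 9 tested. Eogt, which attaches O-GlcNAc to extracellular EGF repeats, was higher by 0.66 (SE 0.12, limma adjusted p = 0.0308), 1 of 6 in receptor glycosylation. None was called among 2 other ligands, 4 ligand ubiquitin ligases, 10 genes of receptor turnover and inhibition and 7 other targets. All 8 stayed above 0 under each alternative, and 5 of them were still called with median-of-ratios scaling. With quantile normalization, with the P60 libraries alone or with the replicate block, 0 were called. Of the 8, 0 kept their call when WT P1 replicate 1 or either of KO P1 replicates 2 and 3 was left out. With KO P1 replicate 1 left out, 5 of the 8 kept it. A fit that drops a P60 library leaves 1 library in a group, so its calls are not counted here. With each library left out in turn, the 8 differences ran from 0.30 (Adam17) to 0.73 (Aph1b). The difference of the KO effect between the ages was called for 0 of 53.

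**Figure D5:**
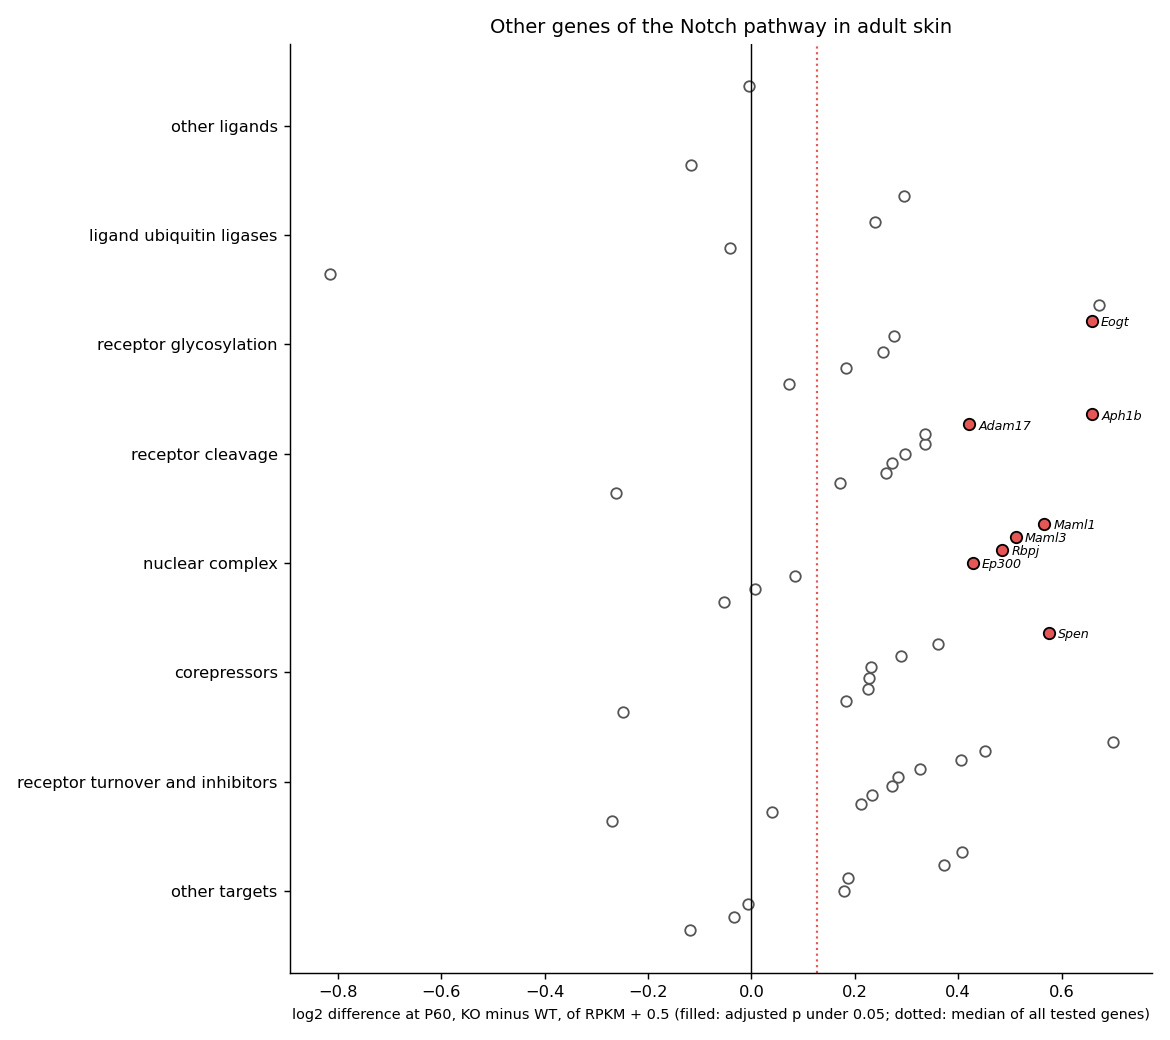
Log2 difference of RPKM + 0.5 at P60, KO minus WT (horizontal axis), for 53 other genes of the Notch pathway in 8 lists (rows), 1 point per gene, spread vertically within its row for legibility. Filled, labelled points passed an adjusted p under 0.05, and 4 of the 8 belong to the nuclear complex (Maml1, Maml3, Rbpj and Ep300, from 0.43 to 0.57), right of the dotted median of all tested genes.

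With age, 36 of these 53 genes were called lower and 6 higher in WT, and 33 lower and 9 higher in KO, where 56% and 49.2% of all genes were called lower. With median-of-ratios scaling the split was 24 lower and 12 higher in WT and 19 lower and 12 higher in KO. Of all 14007 genes tested with that scaling, 4914 were called lower and 5065 higher in WT, and 4750 lower and 4815 higher in KO. Dlk1, a non-canonical ligand and growth regulator, had the largest fall of those named, from 103 RPKM to 0.422 RPKM in the WT means (log2 difference -6.68 in WT and -6.51 in KO). Dlk2, its relative, rose by 1.90 in WT and 2.09 in KO, and the ubiquitin ligase Neurl1a by 2.70 and 1.73. The Hey family members Heyl (-2.87 and -3.08) and Hey2 (-2.61 and -2.44) fell in both genotypes, while Hes6 rose (0.40 and 0.45), although in WT 10 of 19 alternatives no longer called it.

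In the list of receptor cleavage, 5 of 9 genes were called lower and 1 higher in WT and 4 lower and 2 higher in KO, and among ligand ubiquitin ligases 2 were lower and 2 higher in both genotypes. In WT and KO respectively, the glycosylation genes Eogt (-2.14 and -1.51) and Poglut1 (-0.87 and -0.64) and the protease gene Adam10 (-1.80 and -1.54) fell, and Psenen, a gamma-secretase subunit, rose (0.67 and 0.44). Aph1b fell by 1.04 in WT, and in KO its difference was -0.29 (limma adjusted p = 0.0357), no larger than that of the median gene (-0.32), and it was not called with either scaling or when 1 of 5 libraries was left out (WT P1 replicate 1, KO P1 replicates 2 and 3, KO P60 replicates 1 and 2). Rbpj fell by 1.00 and 0.55 and Ep300 by 1.28 and 0.85. The corepressor genes Ctbp2 (-1.54 and -1.29) and Hdac1 (-1.42 and -1.08) fell, and Ctbp1 rose (0.59 and 0.35). The ubiquitin ligases Nedd4 (-1.57 and -1.26), Itch (-1.46 and -1.19) and Mib1 (-1.18 and -0.88) fell, as did Neurl1b (-0.83 and -0.63), and Mib2 rose (0.61 and 0.66). In KO the rule for naming also gave Mfng (1.16), a glycosyltransferase of the Fringe family, Dtx3l (0.79), Furin (-0.63), Maml3 (-1.01) and Ncor1 (-0.92). With a scaling alternative Neurl1b was no longer called in either genotype, nor were Furin and Mib1 in KO. Mib2 was not called in WT without WT P60 replicate 2 (0.56) or in KO without KO P60 replicate 2 (0.57), where Psenen (0.35) and Ctbp1 (0.31) were not called either. In KO, Ctbp1 also lost its call without KO P1 replicate 2 (0.33) or KO P1 replicate 3 (0.29).

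Genes of most similar profile were taken for each of the 10 genes by Pearson correlation of log2(RPKM + 0.5) centred within each age over 10 libraries, which share a run within an age. Notch1 was closest to Ep400 (r = 0.963), Arhgap35 (0.963) and Chd4 (0.962). Notch2 was closest to Gas7 (r = 0.990), Cap1 (0.982) and Dock1 (0.979), and Notch3 to Tnfrsf1a (r = 0.986), Mllt1 (0.982) and Cic (0.977). Notch4 had the weakest best matches of the receptors, Abi3 (r = 0.942), Kcna5 (0.882) and Tmem121 (0.881). Dll4 was closest to Prrg2 (r = 0.957), Sox17 (0.957), a transcription factor of arterial endothelium, and Rabac1 (0.954), and Dll1 to Gga3 (r = 0.973), Gdpd2 (0.969) and Rab40c (0.968). Jag1 was closest to Ocln (r = 0.993), a tight junction protein, Myo6 (0.981) and Uhrf1bp1l (0.977), and Jag2 to Dennd1a (r = 0.980), Plekhg5 (0.978) and Fgf22 (0.973). Hes1 was close to Tmem255b (r = 0.934) and Gpr162 (0.927), and Hey1 was closest to Ankrd10 (r = 0.965), Hoxd9 (0.953) and Dusp18 (0.951). Among the 10 genes themselves the highest correlation was that of Jag2 with Notch3 (r = 0.904) and the lowest that of Dll4 with Notch1 (r = -0.804). These values are descriptions. The nearest genes were the highest among tested genes after some symbols were left out. Those were predicted genes, clones, microRNAs, small nucleolar RNAs and symbols that start with C and a digit.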

How the data were processed

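RNA was measured in 10 libraries of dorsal skin. Per the submitters' processing notes, the authors aligned reads with TopHat2 2.1.0 to mm10 and used Partek. Its version and the gene annotation are not given in the sources used here. RPKM values by the authors fill the deposited table of genes. The deposited sheet of libraries gives alignment counts and the sequencing run, and the deposited comparison table gives linear ratios of KO over WT with p-values and q-values, whose model is not stated. Of the IDs, 26 had been turned into dates by spreadsheet software. Levels are RPKM as deposited.

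The test was limma (version 3.58.1, under R 4.3.3) on a log2 scale of RPKM + 0.5, which understates changes of low genes. A gene entered the fit if 2 or more of the 10 libraries reached 1 RPKM, which held for 14026 genes, all 10 Notch genes among them. The fit had a mean for each of the 4 groups, a spread shared by all libraries and a mean-variance trend, because P60 has 2 libraries a group, so P60 p-values also rest on the spread at P1. Benjamini-Hochberg adjustment ran over all tested genes in each of 5 comparisons, and a gene is called where its adjusted p is under 0.05. The procedure was tested on simulated data. Depth is given as alignments, and the number of libraries limits the precision.

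The members and all lists (8 of the pathway, 12 of cell type markers) were chosen with earlier results of these data known. All 10 members are named, other pathway genes where called in a KO comparison or, per age comparison and list, the 2 called genes of smallest p in each direction, and the 3 genes nearest each member. Some genes that this rule names are not reported here, and they stay in the fits and counts. Alternatives were 2 other pseudocounts, 2 other filters, 2 scalings, no trend, the compared groups alone, a replicate block and each library left out. Promoter sequence is from RefSeq (GRCm38.p6), positions from GENCODE M21.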

Additional observations from a re-analysis of the deposited data

How the results depend on the processing

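Over 19 alternatives (18 for the difference of the KO effect), 0 of 10 Notch genes were called at P1 or for the difference of the KO effect. At P60 the count of Notch genes called, 2 as reported, was 1 with no expression filter, 1 with median-of-ratios scaling, 0 with quantile normalization, 0 with the compared groups alone, and 0 to 2 when 1 library was left out. The count of other pathway genes called at P60, 8 as reported, was 5, 5, 0 and 0 under the same 4 settings and 0 to 12 with 1 library left out, and that for the difference of the KO effect was 0 to 1. With age, leaving out 1 library gave 6 to 7 Notch genes in WT and 5 to 6 in KO. The count of all genes called at P60, 1560 as reported, was 502 with no filter, 55 with quantile normalization, 0 with the groups alone and 0 to 2435 with 1 library left out. Among called age genes the share higher was 26.4% in WT and 30.5% in KO as reported, and 50.8% and 50.3% with median-of-ratios scaling (48% in both with quantile normalization). The cause of these changes was not tested, beyond the fewer libraries in the fits that leave some out.

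The sign of some values turned. With median-of-ratios scaling and quantile normalization, respectively, Hey1 at P1 was 0.0014 and 0.015, the difference of the KO effect was -0.10 and -0.19 for Notch4 and -0.0485 and -0.138 for Dll4, and the age difference was 0.18 and 0.38 for Notch4, 0.40 and 0.42 for Dll1 and 0.31 and 0.0338 for Hes1 in WT, and 0.0822 and 0.19 for Notch4 and 0.32 and 0.15 for Hes1 in KO. Hes1 at P60 was -0.0100 and Jag2 with age in KO 0.13 with median-of-ratios scaling, and Dll4 with age in WT was 0.13 and Aph1b with age in KO 0.0804 with quantile normalization. Leaving out 1 library gave ranges that cross 0. At P1 these were -0.0134 to 0.19 (Notch1), -0.0189 to 0.0778 (Notch2), -0.0455 to 0.13 (Notch3), -0.33 to 0.10 (Dll1), -0.34 to 0.0712 (Dll4), -0.0908 to 0.0774 (Jag1), -0.0543 to 0.19 (Jag2), -0.20 to 0.20 (Hes1) and -0.22 to 0.16 (Hey1). At P60 they were -0.37 to 0.21 (Dll4) and -0.18 to 0.48 (Hes1). For the difference of the KO effect they were -0.0478 to 0.18 (Notch4), -0.19 to 0.39 (Dll4) and -0.15 to 0.52 (Hes1). With age they were -0.26 to 0.16 (Dll1) and -0.37 to 0.0287 (Hes1) in WT and -0.35 to 0.31 (Hes1) in KO. Of these genes Aph1b alone was called in the comparison concerned as reported.

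The labels number the replicates alike in both genotypes. Deviations from the group means correlated at -0.17, 0.24 and -0.26 between same-numbered libraries at P1, and at -0.27 to 0.34 between differently numbered ones. At P60 the value was 0.24. With 2 libraries a group the deviations are exact opposites, so the P60 value cannot show a pairing. Whether equal numbers mark paired libraries is therefore not decided. With the replicate block 0 Notch genes, 0 other pathway genes and 2 genes in all were called at P60. In the age comparisons the block was a term for each replicate number over both ages. There the age difference was 0.0286 for Dll1 in WT and 0.0827 for Hes1 in KO. Low levels of Notch4, Dll4 and Hey1, and 2 libraries a group at P60, limit what could be detected.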
